A study of Mus musculus with 4 samples.

Results

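A stretch of mouse chromosome 8, mm10 chr8:61927660-112046551, was described in the ATAC-seq peak lists of embryoid bodies (EBs) on day 4 after differentiation. Its members were all regions inside this interval that resulted from merging the peaks of the 4 lists wherever peaks shared at least 1 bp. There were 1995 such regions among 80380 in the genome. The interval was chosen by the measured peak levels themselves, because it had been noted as a stretch raised in K20R. The values compared for it were fold, p and peak presence. Its difference between the genotypes is therefore a description, and no test was made of it. The interval spans 50.1 Mb, or 38.7% of a chromosome of 129.4 Mb. The remaining 2323 regions of chromosome 8 and the 74519 regions of the other autosomes are given beside it.

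ATAC-seq cuts accessible DNA with a transposase, and a peak marks DNA that was cut more often than its surroundings. WT EBs of the mouse embryonic stem cell line E14Tg2A were compared with CTCF-K20R EBs, in which CRISPR/Cas9 editing replaced lysine 20 of CTCF with arginine, with 2 libraries of each genotype. EBs of both genotypes were made by the hanging-drop method in medium with serum and without leukemia inhibitory factor, from cells that had been kept on mitomycin C-inactivated mouse embryo fibroblasts. The edited cells were colonies taken after drug selection, and neither the number of colonies behind the K20R libraries nor the state of each Ctcf copy is given in the sources used here. The methods of the study call the libraries of a genotype biological replicates, and the sources used here do not say whether they came from separate EB cultures or from separate colonies.

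CTCF is a zinc finger protein that binds a long DNA motif, and cohesin that stops at bound CTCF forms the borders of chromatin loops and domains. Transposase cuts concentrate at promoters, enhancers and CTCF sites, while the rest of the DNA gives a low level of cuts that follows how much of that DNA the cells hold and how loosely it is packed. A peak caller reports the height of a summit, the local background around it, and their ratio. In bulk cells, more copies of a piece of DNA, more cells in which it is open and wider opening in each cell cannot be told apart by such lists.

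The sequences below were chosen because the description turns on them. They comprise the 3 common regions with a CTCF consensus whose pileup differed most in favour of K20R, the DNA before the start of Ctcf, and the 2 strongest regions with peaks in only one genotype, for each genotype. All are read from the plus strand of mm10, 5′ to 3′, and capitals mark matches to the CTCF consensus. The 3 CTCF consensus regions lie in intergenic DNA nearest to Ttc29 (chr8:78124277-78124477), in the last exon of Dand5 (chr8:84815722-84815751, shown as a site of 30 bases) and in an intron of Gnao1 (chr8:93932966-93933166).
Region near Ttc29: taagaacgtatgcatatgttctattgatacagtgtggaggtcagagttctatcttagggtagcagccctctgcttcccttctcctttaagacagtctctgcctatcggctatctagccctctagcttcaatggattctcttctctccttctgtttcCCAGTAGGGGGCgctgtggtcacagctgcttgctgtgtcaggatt
Region in Dand5: ggacgcggtGCCACCTAGTGGctaaaagcg
Region in Gnao1: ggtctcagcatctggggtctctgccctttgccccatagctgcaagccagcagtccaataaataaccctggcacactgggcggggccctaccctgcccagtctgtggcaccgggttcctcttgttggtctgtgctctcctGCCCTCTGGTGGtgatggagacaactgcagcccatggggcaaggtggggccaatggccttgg

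The Ctcf promoter window (chr8:105636337-105636537) ends at the base before the start that RefSeq gives for GRCm38.p6. With 75.6% G and C and 27 CpG pairs in 201 bases it is rich in CpG, and it holds no match to any motif searched here.
Before Ctcf: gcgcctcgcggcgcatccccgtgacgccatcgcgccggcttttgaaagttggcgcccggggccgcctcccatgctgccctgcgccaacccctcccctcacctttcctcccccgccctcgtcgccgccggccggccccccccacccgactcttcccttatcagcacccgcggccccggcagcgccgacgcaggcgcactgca

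The 2 strongest K20R-restricted regions lie in intergenic DNA nearest to Gab1 (chr8:80918644-80918844) and Otud4 (chr8:79546097-79546297), and the 2 strongest WT-restricted regions lie in introns of Wdr59 (chr8:111516631-111516831) and Cdh11 (chr8:102740650-102740850). None of these windows of 201 bases around the summit holds a match to a motif searched.
K20R-restricted near Gab1: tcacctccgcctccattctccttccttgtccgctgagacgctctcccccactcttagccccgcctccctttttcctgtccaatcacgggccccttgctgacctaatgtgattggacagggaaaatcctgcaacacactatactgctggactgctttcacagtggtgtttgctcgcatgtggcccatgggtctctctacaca
K20R-restricted near Otud4: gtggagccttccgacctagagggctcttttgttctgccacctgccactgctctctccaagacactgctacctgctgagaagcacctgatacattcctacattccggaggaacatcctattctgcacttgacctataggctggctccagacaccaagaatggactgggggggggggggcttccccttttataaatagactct
WT-restricted in Wdr59: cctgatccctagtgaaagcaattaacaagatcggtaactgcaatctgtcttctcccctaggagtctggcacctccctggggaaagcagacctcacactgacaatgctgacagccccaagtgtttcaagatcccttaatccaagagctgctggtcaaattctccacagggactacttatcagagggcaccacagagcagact
WT-restricted in Cdh11: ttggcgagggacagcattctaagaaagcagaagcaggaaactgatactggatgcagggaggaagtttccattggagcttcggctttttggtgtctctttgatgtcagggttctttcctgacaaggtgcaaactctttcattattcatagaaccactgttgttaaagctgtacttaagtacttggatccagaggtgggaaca

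Over the whole series, the lists held 59783 and 66703 peaks in WT against 51823 and 55832 in K20R. For each peak, the reads at its summit (pileup) and the local background were solved from the fold and p that the lists give. Levels are given on a log2 scale relative to the median of the same library over the autosomal regions with a peak in all 4 lists (common regions), so that a value of 0 is a typical region of that library. Pileups are printed as read numbers, which also follow the depth of each library, whereas all comparisons between libraries use the centred levels. Within the stretch, the 2 libraries of a genotype differed in summit pileup by a median of 0.17 (WT) and 0.16 (K20R) per region, without regard to sign, which is the replicate error behind single regions.

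The share of chromosome 8 peaks that fell in the stretch was higher in both K20R lists than in both WT lists. It was 46.0% of 3081 peaks (Wilson 95% interval 44.2 to 47.8) in WT replicate 1 and 44.9% of 3447 (43.2 to 46.5) in WT replicate 2. In K20R it was 50.2% of 2952 (48.4 to 52.0) in replicate 1 and 50.5% of 3138 (48.8 to 52.3) in replicate 2. These intervals cover counting error only. In numbers, the stretch held 1417 and 1547 peaks in WT against 1483 and 1586 in K20R, which overlap between genotypes, whereas the rest of the chromosome and the genome had fewer peaks in K20R.

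Of the 1995 members, 1040 (52.1%) had a peak in all 4 lists, compared with 45.0% in the rest of chromosome 8 and 47.8% on the other autosomes. K20R-restricted regions, with a peak in both K20R lists and in neither WT list, numbered 110 (5.51%, Wilson 95% interval 4.60 to 6.60), and over all regions of the genome they were 3.1%. WT-restricted regions numbered 104 (5.21%, 4.32 to 6.28), and over all regions they were 10.4%. In the lists as deposited the counts were close to each other, but with lists cut to equal length there were 169 K20R-restricted against 66 WT-restricted members, and with −log10 q of at least 10 there were 76 against 47. In the deposited lists the rest of chromosome 8 held 86 K20R-restricted (3.70%) and 250 WT-restricted regions (10.8%). Called peaks were missing from the deposited lists, as gaps in the peak numbers show, and at only 18 of the 110 and 30 of the 104 members no number was missing around the region in the lists without a peak. Counted by the peak numbers, which include what was removed, the stretch held 43.4% and 42.6% of chromosome 8 peaks in WT against 56.3% and 53.7% in K20R. Of its numbers, 55.6% and 55.0% were kept in WT against 46.1% and 53.5% in K20R, whereas in the rest of the chromosome 50.0% and 50.2% were kept in WT against 58.7% and 60.6% in K20R. Peak presence in the stretch therefore depended on what was removed from the lists, and the K20R share was larger by peak numbers than by the peaks kept.

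Summit pileups in the stretch were higher in both K20R libraries than in both WT libraries, and the local background was higher by a similar factor. The median pileup of the 1040 common members lay at 0.072 and 0.074 above the library median in WT and at 0.68 and 0.72 in K20R (0.073 ± 0.001 and 0.70 ± 0.03, mean ± SD, n = 2). In recovered reads per summit, medians were 40 and 59 in WT against 63 and 96.5 in K20R. The genotypes did not overlap, and the spread within each was small beside the distance between them. Per region, the median K20R minus WT difference was 0.66 (quartiles 0.39 to 0.85), or 1.57-fold. It was 0.084 (−0.21 to 0.30) in the rest of chromosome 8 and 0.069 on the other autosomes. Relative to the rest of chromosome 8 the stretch was thus 1.49-fold higher in K20R, a ratio that does not depend on the centring.

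The local background of the same peaks had medians of 0.14 and 0.10 in WT against 0.65 and 0.68 in K20R. Its per-region difference was 0.56, or 1.48-fold, compared with 0.033 in the rest of the chromosome and 0.026 on the other autosomes. A background cannot be read below the floor of its list, which is set by the depth of the library. Among the 820 common members whose background lay above that floor in all 4 libraries, the difference was 0.60 for the background and 0.66 for the pileup. The fold, which is the ratio of pileup to background, moved little. Its medians were −0.045 and −0.038 in WT against 0.055 and 0.028 in K20R, and its per-region difference was 0.055 (quartiles −0.12 to 0.22), compared with 0.008 in the rest of chromosome 8. This small value was 0.0067 without K20R replicate 1, 0.012 without WT replicate 2, 0.097 without WT replicate 1 and 0.13 without K20R replicate 2. With levels centred on all peaks it was −0.010, and the rest of chromosome 8 then moved to −0.058. Relative to that rest, the fold of the stretch was higher by 0.047 under both centrings. Given how far it varied with the library left out, no firm direction can be given for the fold. Summit and local background were thus both higher in K20R, and the contrast between them stayed near its WT level. The background comes from the same library as the summit, and it can follow a single summit. At an intronic Palld region outside the stretch, described below, it differed by −1.75 where the pileup differed by −2.97. How far reads of the peak itself enter the background was not tested. The part of DNA copy number in these values was not tested, since genomic DNA of the cells is not part of the peak lists.

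**Figure D1:**
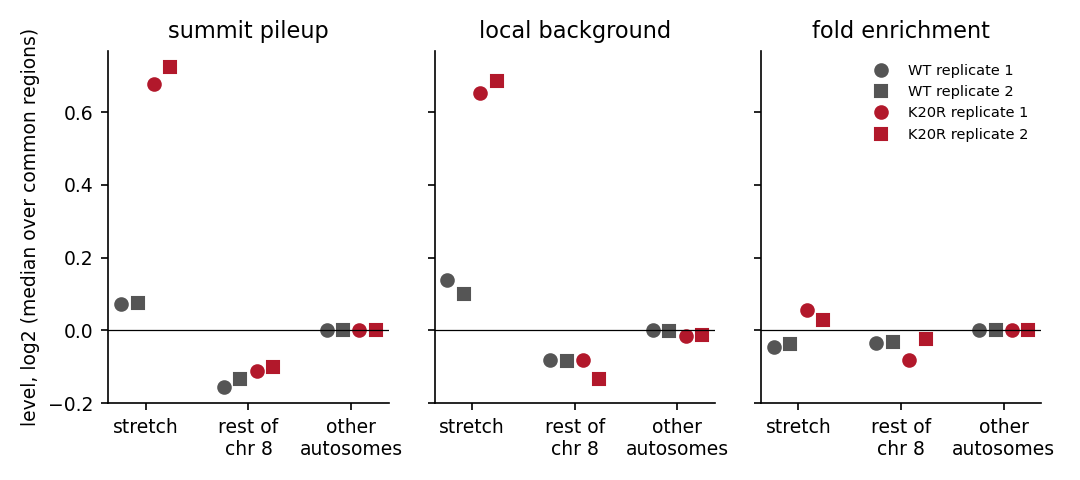
Median level of summit pileup, local background and fold in each of the 4 libraries (log2, relative to the library's median over common autosomal regions) in the stretch, the rest of chromosome 8 and the other autosomes. In the stretch the K20R points lie at 0.68 and 0.72 for pileup and at 0.65 and 0.68 for background, above WT points of at most 0.14, while the fold points of the stretch lie between −0.045 and 0.055.

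Counts of regions gave the same picture. Both K20R libraries exceeded both WT libraries in pileup at 842 of 1040 common members (81.0%), compared with 35.7% of all common autosomal regions, and the reverse held at 56 members (5.38%), compared with 23.5%. For the local background, 867 members (83.4%) had both K20R above both WT, compared with 24.4%. The p values, on their −log10 scale, did so at 727 members (69.9%), compared with 31.1%, with a median log2 difference of 0.63. For the fold there were 265 members (25.5%), compared with 21.2%. Members are neighbours on 1 chromosome and not replicates of each other, and these shares include the values by which the interval was chosen.

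The members also moved up in the order of their lists. By the percentile of the −log10 p within a list, where 100 is the strongest peak, common members had medians of 66.0 and 69.4 in WT against 73.1 and 75.5 in K20R. Per region the K20R minus WT difference was 5.44 points, whereas it was −1.35 in the rest of chromosome 8. Both K20R ranks were above both WT ranks at 616 members (59.2%), compared with 18.8% of common autosomal regions. Peaks were also wider. The strongest peak of a common member had a median width of 801 and 860 bp in WT against 883 and 981 bp in K20R. In the rest of the chromosome widths were 797 and 864 bp in WT against 794 and 918 bp in K20R, which overlap between genotypes.

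Along the chromosome the level was higher across the interval than beside it in windows, while single regions near both ends were mixed. In windows of 40 common regions, all 26 windows of the stretch had each of the 4 K20R and WT pairs apart by over 0.3 in favour of K20R. This held for 0 of 26 windows of the rest of chromosome 8 and for 7 of 892 windows on the other autosomes. Window medians of the pileup ranged from 0.45 to 0.72 inside and from −0.10 to 0.24 in the rest of chromosome 8. Those of the background ranged from 0.40 to 0.67 inside and from −0.12 to 0.17 in that rest. Within the chromosome, these ranges did not overlap for either measure. Windows of the other autosomes reached 0.62 in pileup and 0.53 in background, which lie within the inner ranges. For the fold, the ranges inside (−0.03 to 0.13) and in the rest of chromosome 8 (−0.10 to 0.09) overlapped. The interval was chosen on these levels and its ends were set by windows. The window counts and the gap between the ranges therefore describe that choice and are no support for it. The lowest window inside, with a pileup difference of 0.45 and a background difference of 0.40, ran from 86.9 to 88.3 Mb and the highest, at 0.72 and 0.60, from 104.1 to 105.3 Mb.

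**Figure D2:**
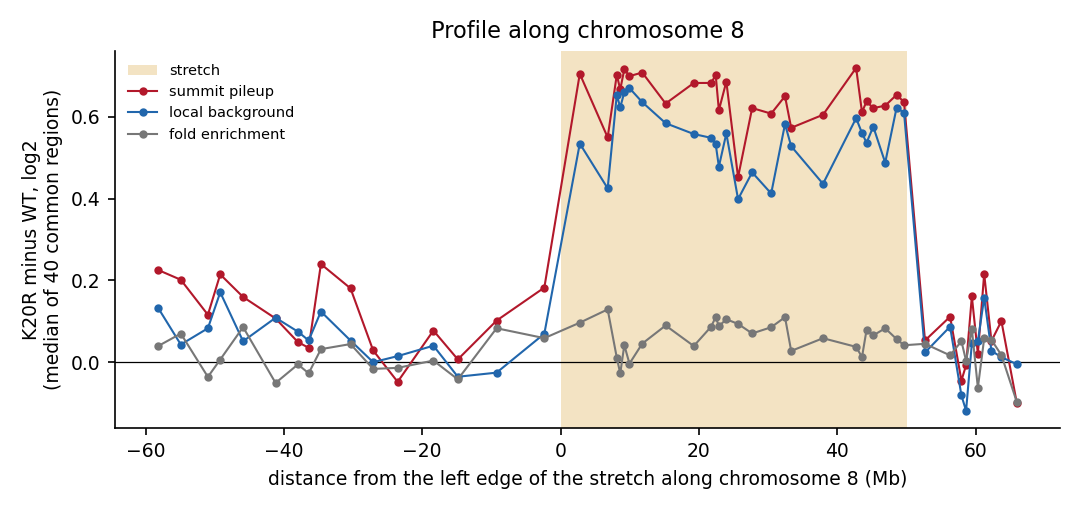
Median K20R minus WT difference (log2) of summit pileup, local background and fold in windows of about 40 common regions along chromosome 8, against the distance from the left edge of the stretch in Mb, with the stretch shaded. Pileup and background step up together to between 0.40 and 0.72 across the shaded part and return to between −0.12 and 0.24 outside, while the fold stays between −0.10 and 0.13.

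The ends of the interval were set by windows, and single regions place the change somewhat inside the right end. On the right, the last common member above 0.3 in both pileup and background was the promoter of Tmem231, at 111.93 Mb, with pileups of 145 and 227 in WT against 274 and 455 in K20R. Tmem231 encodes a protein of the ciliary transition zone. The next promoter, that of the autophagy gene Gabarapl2 at 111.94 Mb, had 111 and 187 in WT against 122 and 189 in K20R. The K20R minus WT difference fell from 0.91 to 0.03 in pileup and from 0.96 to 0.14 in background between these neighbours. The 4 common members beyond, up to the end of the interval, had pileup differences of 0.14, 0.19, 0.23 and 0.03. Their background differences were 0.005, 0.036, 0.066 and 0.30, the last of which lay above every window of the rest of chromosome 8. The 10 common regions closest to the edge outside had medians of −0.008 in pileup and 0.026 in background. Among them, an intergenic region nearest to Mon1b at 113.51 Mb was above 0.3 in both measures (0.71 and 0.49). It was picked after its values were seen.

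On the left, the first 4 common members gave −0.01, 1.11, −0.06 and −0.28, with background differences between −0.27 and 0.06. Inside the interval, the first common member above 0.3 in both measures was the next one, in an intron of Sgo2b at 63.93 Mb (1.28 in pileup and 1.00 in background). Not every member after it was raised, as an intronic region of Tll1 at 64.15 Mb gave −0.61 in pileup and 0.07 in background. Common regions are sparse there, and the 10 nearest to the left edge cover the DNA from 61.93 to 64.55 Mb. Of the 10 common regions just outside this edge, 6 had both K20R libraries above both WT libraries and 3 had them below, with medians of 0.14 in pileup and −0.023 in background. An exonic region of Cbr4 at 61.53 Mb (0.81 in pileup and 0.61 in background) and a promoter of Palld at 61.76 Mb (0.74 and 0.40) were above 0.3 in both measures. Regions above 0.3 in both measures thus lay outside both edges. The left edge was less sharp than the right one in that no single pair of neighbours marked the change. The most negative values near it were also outside. An intronic region of Palld, which encodes an actin-binding protein, at 61.63 Mb had pileups of 97 and 199 in WT against 19 and 16 in K20R, a difference of −2.97. An intronic region of Sh3rf1 at 61.28 Mb had 120 and 187 in WT against 28 and 58 in K20R, a difference of −1.91. All 4 regions were picked here after their values were seen. The Palld and Sh3rf1 introns lay 1.33 to 1.81 above the library median in WT and at or below it in K20R.

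**Figure D3:**
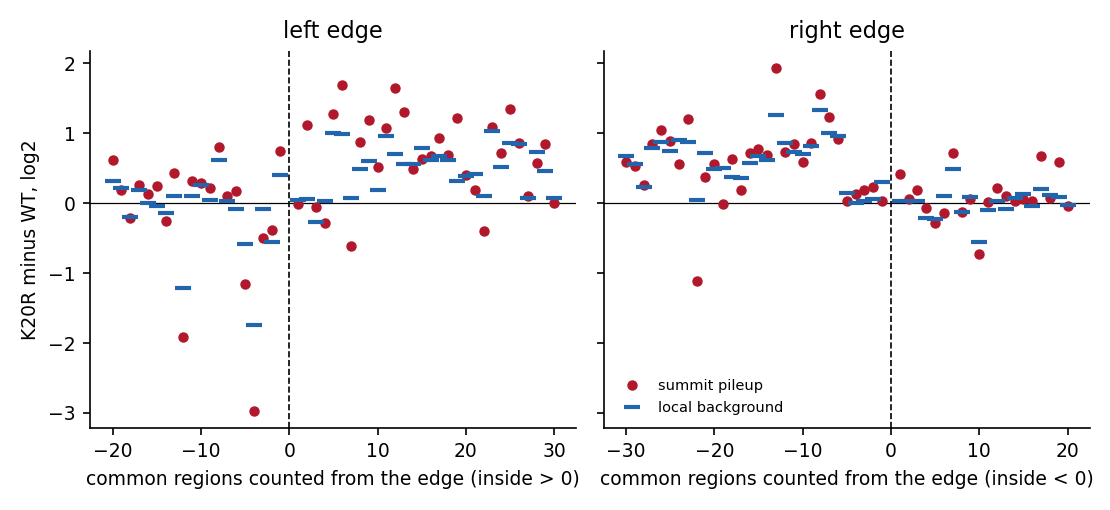
K20R minus WT difference (log2) of summit pileup (points) and local background (bars) at single common regions, in their order from the left and the right edge of the stretch (dashed line). On the right both measures drop from 0.91 and 0.96 to 0.03 and 0.14 between neighbouring promoters just inside the edge, and on the left the lowest point, −2.97, is the intronic Palld region outside.

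The difference was present in every class of region, and both its median and its spread varied between classes. Promoters, within 1000 bp of a TSS, had a median pileup difference of 0.69 (quartiles 0.54 to 0.82, 389 members), exons 0.69 (88), introns 0.58 (0.23 to 0.88, 304) and intergenic regions 0.57 (0.26 to 0.87, 259). In the rest of chromosome 8 the same classes had 0.13, 0.10, 0.02 and 0.07. The background of these classes in the stretch differed by 0.64, 0.61, 0.46 and 0.43, and their fold by 0.038, 0.045, 0.067 and 0.086. Both K20R libraries were above both WT libraries in pileup at 93.6% of promoter members and 71.8% of intergenic members. In the rest of chromosome 8 these shares were 43.0% and 34.6%. By strength, the weakest quartile of regions had 0.53 (0.18 to 0.85) and the strongest 0.69 (0.57 to 0.80), with 62.1% and 97.2% of members above in both K20R libraries. The same quartiles had 31.2% and 43.1% in the rest of chromosome 8, so the share rose with strength there as well. In the stretch, the background of these quartiles differed by 0.40 and 0.64, with regions at the background floor included. Strong summits have more reads and less counting error, and their values lay closest together.

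Classes of GC content and of the CTCF consensus lay close together in pileup. The lowest quartile of GC had a median of 0.61 and the highest 0.69. Their background differences lay further apart, at 0.42 and 0.62. The 73 common members with a CTCF consensus within 100 bp of the summit had 0.68 (quartiles 0.38 to 0.87) and the 967 without it 0.65 (0.39 to 0.85). In the rest of chromosome 8, the values were 0.16 and 0.08. At the region near Ttc29 printed above, pileups were 17 and 21 in WT against 38 and 68 in K20R, a difference of 1.34. The site in Dand5, whose product antagonises Nodal, had 21 and 45 in WT against 61 and 97 in K20R. The site in Gnao1, which encodes a G protein subunit, had 12 and 14 in WT against 29 and 38 in K20R. At each of the 3 sites both K20R libraries were above both WT libraries, which follows in part from their choice by the size of the pileup difference.

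**Figure D4:**
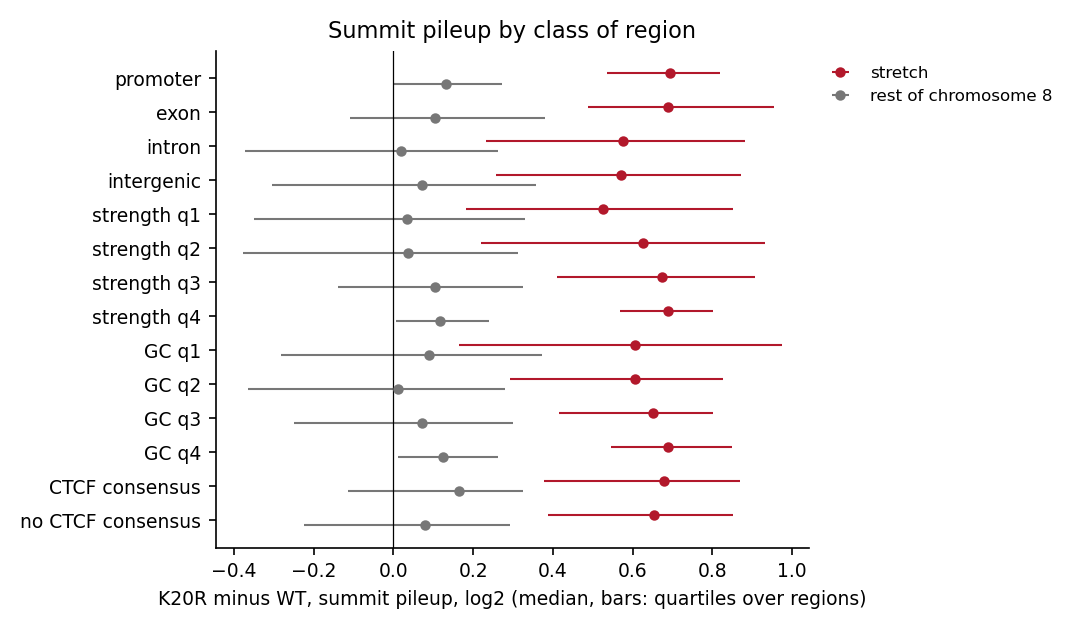
Median K20R minus WT difference in summit pileup (log2, bars are quartiles over regions) by annotation, by quartile of strength and of GC content, and by presence of a CTCF consensus, for common regions of the stretch and of the rest of chromosome 8. The stretch medians lie between 0.53 and 0.69 in every class, and those of the rest of the chromosome between 0.01 and 0.16.

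Features other than the peak levels were also compared. Of these, only the density of genes is free of the peak lists. The others were computed over called regions, and peak presence had entered the choice of the interval. The stretch was rich in genes, with 10.5 protein-coding genes per Mb, compared with 6.47 in the rest of chromosome 8 and 8.46 on the other autosomes, and in regions, with 39.8 per Mb compared with 29.3 and 31.9. Promoters made up 21.7% of the members (Wilson 95% interval 20.0 to 23.6), compared with 16.4% and 18.9%. Median GC content was 54.2%, compared with 53.7% and 53.2%. Motif matches were searched on both strands within 100 bp of the strongest summit, and matches may overlap one another. The CTCF consensus was found at 5.86% of members and 5.97% of all regions. The AP-1 motif TGANTCA was found at 6.87% and 7.07%, the GATA motif AGATAA at 6.82% and 7.81%, the T-box motif TCACACCT at 1.05% and 1.25%, and the GC box GGGGCGGGG at 5.66% and 4.84%. The stretch thus held the motifs at shares near those of the genome.

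Promoters give names to the members. The stretch holds 525 protein-coding genes, and 420 of them had a promoter peak in all 4 lists, 80 had none in any list and 25 had one in some lists. Genes that share a promoter share a peak, and the 420 genes stand for 375 distinct peaks. The summit pileup at the promoter was higher in both K20R libraries than in both WT libraries for 401 of the 420 genes (95.5%), compared with 41.2% of all autosomal genes with such peaks. It was lower in both for 2 genes, compared with 13.8%. The median K20R minus WT difference was 0.70 for the pileup, 0.64 for the background and 0.038 for the fold. In the rest of chromosome 8 the median pileup difference of 355 genes was 0.14. By fold, 73 of the 420 genes (17.4%) were higher in both K20R libraries, compared with 16.4% of all autosomal genes with such peaks, and 55 (13.1%) were lower, compared with 13.9%. So the direction was nearly uniform for the pileup, and for the fold the shares lay near those of all genes.

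The genes for chromatin architecture were the first group described. All 13 had promoter pileups that were higher in both K20R libraries than in both WT libraries. This held for 95.5% of all genes of the stretch with such peaks, so neither this count nor those of the later lists set a group apart. The median difference was 0.68 in pileup, 0.71 in background and 0.009 in fold. Ctcf itself lies in the stretch, and its promoter, part of which is printed above and which overlaps annotated transcripts of Agrp, had pileups of 103 and 118 in WT against 159 and 225 in K20R, a difference of 0.73 in pileup, 0.84 in background and −0.14 in fold. Mau2, which encodes the partner of NIPBL in loading cohesin, had 78 and 121 in WT against 140 and 223 in K20R, a difference of 0.81 in pileup and −0.07 in fold. Both promoters thus had higher summits and a higher local background in K20R, with a fold at or below that of WT.

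Chromatin remodellers and histone factors were similar. Chd9, a chromodomain helicase gene, had the largest value of the group with 72 and 124 in WT against 168 and 293 in K20R (1.18). The PBAF subunit gene Brd7 gave 0.98, the histone chaperone gene Asf1b 0.79, the corepressor gene Sin3b 0.72 and the ISWI ATPase gene Smarca5 0.68. Gatad2a, of the NuRD complex, gave 0.49, and Samd1, which binds CpG islands, 0.48. The arginine methyltransferase gene Prmt7 gave 0.62. Among shelterin genes, which protect telomeres, Acd gave 0.61 and Terf2 0.45. Terf2ip, at 112.01 Mb among the last members on the right, had the lowest value of the group with 0.23 in pileup and 0.07 in background. Apart from this gene, which lies beyond the drop near the right end described above, the group ranged from 0.45 to 1.18.

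Transcription factor genes numbered 24, and 23 had a promoter peak in all 4 lists. Of these, 20 (87.0%) were higher in both K20R libraries in pileup, compared with 95.5% of all genes of the stretch. The median difference was 0.59 in pileup and 0.03 in fold. Klf1, which directs erythroid genes, had 93 and 149 in WT against 180 and 302 in K20R (0.94). Jund, an AP-1 subunit gene, had 140 and 215 in WT against 279 and 385 in K20R (0.87). Rfx1 gave 0.81, the immediate early gene Ier2 0.78, Nfat5 0.76, E2f4 0.73 and Zfhx3 0.70. Differences were also positive, with no overlap of the genotypes, for Nr3c2 (0.67), Sall1 (0.66), Mef2b (0.64), Irx3 (0.61), Nfatc3 (0.59), Smad1 (0.51), Junb (0.51), Klf2 (0.47), Crtc1 (0.47), Nr2f6 (0.46), Nfix (0.44), Cbfb (0.39) and Zfp423 (0.38). Smad1 carries BMP signals and Sall1 is a zinc finger gene of the developing mesoderm and nervous system.

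The genotypes overlapped at 3 transcription factor promoters. The Iroquois gene Irx5 had 139 and 196 in WT against 96 and 338 in K20R, so that the K20R libraries lay on either side of WT (0.08). Its neighbour Irx6 had 72 and 143 in WT against 93 and 155 in K20R (0.20). Tox3, an HMG-box gene, had 40 and 54 in WT against 48 and 56 in K20R (0.11). In fold these promoters differed by −0.40, −0.34 and 0.38. Lyl1 had a promoter peak in 3 of the 4 lists and was not scored. The background at Irx5 and Irx6 was higher in K20R by 0.46 and 0.51, while at Tox3 it was lower by 0.30 (−0.30).

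Of 18 signalling genes, 16 had promoter peaks in all 4 lists. In pileup, 14 of these (87.5%) were higher in both K20R libraries, compared with 95.5% of all genes of the stretch. The median difference was 0.61 in pileup and 0.07 in fold. The cytokine gene Il15 stood out with 22 and 32 in WT against 68 and 101 in K20R, a difference of 1.56 in pileup, 0.96 in background and 0.57 in fold. Gipc1 gave 0.94, the kinase gene Jak3 0.92, the BMP1-like protease gene Tll1 0.88, Gnao1 0.74, the TGF-β family gene Gdf1 0.71, the kinase A gene Prkaca 0.66, the adaptor genes Bcar1 and Gab1 0.63 and 0.58, the hedgehog-binding gene Hhip 0.47, Pik3r2 0.46, Npy1r 0.37 and Dand5 0.36. Apela, whose peptide acts on the apelin receptor in early mesendoderm, had 83 and 112 in WT against 91 and 141 in K20R, which gave 0.19 in pileup, 0.41 in background and −0.25 in fold. No gain was seen for Ednra, the endothelin receptor gene, with 73 and 141 in WT against 87 and 124 in K20R (−0.01), or for the phosphatase gene Inpp4b with 58 and 110 in WT against 52 and 103 in K20R (−0.17). For Gdf15 only the K20R peaks, which were wider, reached within 1000 bp of the TSS, so it was not scored.

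Adhesion and matrix genes gave 9 of 9 promoters with higher pileups in both K20R libraries, compared with 95.5% of all genes of the stretch. The median pileup difference was 0.65. The median fold difference was 0.19. By fold, 5 of the 9 promoters were higher in both K20R libraries, compared with 16.4% of all autosomal genes and 17.4% of the genes of the stretch, a count of few genes that was not tested. The signalling list also exceeded these shares by fold, with 6 of 16 promoters higher and 3 lower. In the transcription factor list 2 of 23 were higher and 3 lower, and in the architecture list 2 of 13 were higher and 1 lower. Cdh1, which encodes E-cadherin of epithelial and pluripotent cells, had 97 and 121 in WT against 167 and 271 in K20R, a difference of 0.92 in pileup, 0.59 in background and 0.31 in fold. Cdh3, which encodes P-cadherin and lies next to it, had 64 and 85 in WT against 107 and 176 in K20R (0.84 in pileup and 0.27 in fold). Comp (0.88), the collagenase gene Mmp2 (0.83), Cdh11 (0.65), Cdh8 (0.63), Tpm4 (0.47), Mmp15 (0.45) and Esrp2 (0.39) completed the group. Cdh5, which encodes VE-cadherin of endothelial cells, had no promoter peak in any list, and the endothelial gene Plvap had one only in K20R, with pileups of 45 and 49. Palld was left out because its TSS lie outside the interval.

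Housekeeping genes are active in nearly all cells. All 19, which stand for 18 distinct peaks, had higher promoter pileups in both K20R libraries, compared with 95.5% of all genes of the stretch. Their median was 0.73 in pileup and 0.73 in background, and −0.07 in fold. Polr2c, a subunit gene of RNA polymerase II, had 32 and 42 in WT against 66 and 92 in K20R (1.02 in pileup and 0.26 in fold). The tRNA synthetase gene Aars had 91 and 119 in WT against 154 and 261 in K20R (0.90 in pileup, 0.99 in background and −0.12 in fold). The chaperone gene Calr had 148 and 185 in WT against 264 and 395 in K20R (0.92 in pileup and −0.11 in fold). Kars, which shares its promoter peak with Terf2ip near the right edge, had the lowest value with 0.23. The others lay between 0.30 (Prdx2) and 0.91 (Farsa). By fold, 1 of the 19 was higher in both K20R libraries and 3 were lower, compared with 16.4% and 13.9% of all autosomal genes, counts too small to set the list apart.

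As a comparison, 18 genes of chromosome 8 outside the stretch had a median promoter difference of 0.09. For 6 of them (33.3%) both K20R libraries were above both WT libraries and for 2 they were below, near the 41.2% and 13.8% of all autosomal genes. Values ranged from −0.44 at Ikbkb, a kinase gene of NF-κB signalling, to 0.78 at Zfp42, a marker gene of naive pluripotency, with pileups of 42 and 81 in WT against 77 and 141 in K20R. Wwox, a large gene to the right of the stretch, gave 0.08. The mesoderm genes Hand2 (0.01), Foxf1 (−0.28) and Foxc2 (0.16) also lay below the median of the stretch.

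**Figure D5:**
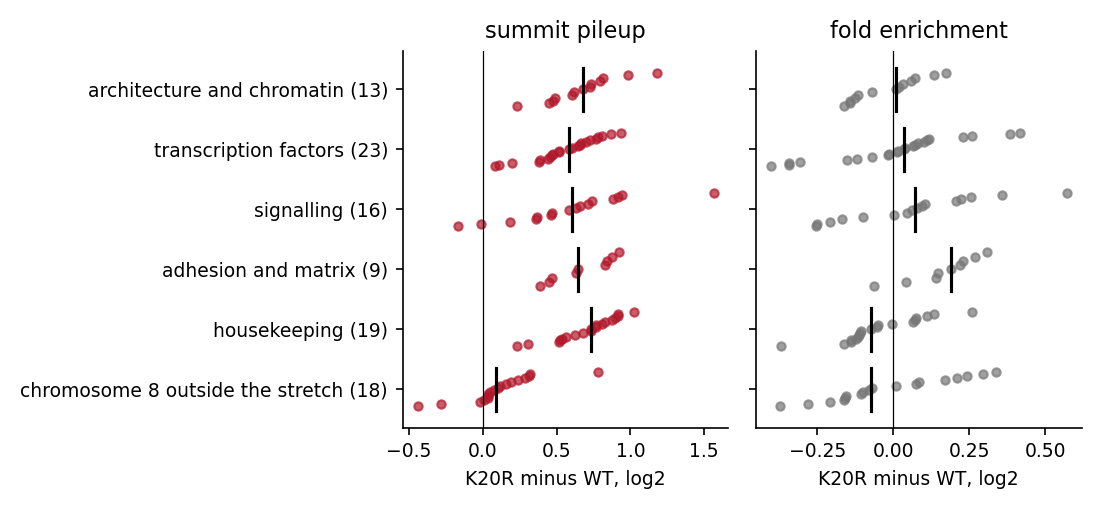
K20R minus WT difference (log2) in summit pileup and in fold at the promoters of listed genes with a peak in all 4 lists, by list, with the number of genes in brackets and the median as a black line. Medians of the pileup lie between 0.59 and 0.73 for the 5 lists of the stretch and at 0.09 for genes of chromosome 8 outside it, while medians of the fold lie between −0.08 and 0.19.

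Among all 420 promoters of the stretch, the gain ranged widely. The 5 largest were at Sgo2b, a shugoshin paralogue, with 21 and 31 in WT against 62 and 123 in K20R (1.69), Il15 (1.56), the sulfotransferase gene Chst5 with 31 and 37 in WT against 87 and 126 in K20R (1.56), the necroptosis gene Mlkl with 24 and 56 in WT against 86 and 116 in K20R (1.38) and Plekhg4 with 33 and 56 in WT against 87 and 153 in K20R (1.36). At all 5 the fold was higher in both K20R libraries as well, by between 0.20 and 0.68. They were weak promoters in WT, at or below the library median in both WT libraries. Both traits follow in part from the choice, since the 5 were picked by pileup, which enters the fold.

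The 5 smallest were at B3gnt3, a glycosyltransferase gene, with 34 and 26 in WT against 18 and 24 in K20R (−0.54), the adhesion receptor gene Adgrg1 with 60 and 83 in WT against 43 and 71 in K20R (−0.39), Inpp4b (−0.17), Tepp (−0.09) and Ripor1 with 121 and 213 in WT against 123 and 203 in K20R (−0.07). The fold was lower in both K20R libraries at all 5, by between 0.17 and 0.83 on the log2 scale (−0.17 and −0.83). The background at 4 of them was higher in K20R, by 0.06 to 0.37, and at Adgrg1 it was lower (−0.25). These summits thus stood less high over their local background in K20R, which also follows in part from their choice by pileup.

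Outside promoters, the largest gains among common members were larger still. An intronic region of Ccdc113 (chr8:95545581-95546282) had 9 and 13 in WT against 52 and 75 in K20R (2.38 in pileup, 1.29 in background). One in Ttc29 (chr8:78284631-78285631) had 7 and 14 in WT against 42 and 73 in K20R (2.32 in pileup, 0.89 in background). An exonic region shared by Cyp4f18 and Zfp961 (chr8:71988191-71989405) had 9 and 14 in WT against 46 and 75 in K20R (2.24). These lay near the bottom of the WT lists, at percentiles of at most 21.0, and at 66.6 or above in K20R. An intergenic region nearest to Gm9495 (chr8:69399174-69400027) gave 1.98 and an intronic region of Cfdp1 (chr8:111788985-111790271) gave 1.93. In fold these 5 differed by between 0.65 and 1.40. They were picked by pileup, which enters the fold, and had few reads in WT, so this follows in part from the choice.

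A few members were lower in K20R, and the 3 with the largest such differences outside promoters are given here, picked after their values were seen. An intronic region of Fto, 225176 bp from the TSS of Irx3 (chr8:91575726-91577246), had 47 and 69 in WT against 13 and 14 in K20R (−2.04 in pileup, −1.56 in fold). One in Gnao1 (chr8:93888923-93889601) had 53 and 70 in WT against 12 and 23 in K20R (−1.85). One in Slc10a7 (chr8:78719194-78720849) had 78 and 114 in WT against 22 and 37 in K20R (−1.73), and it holds an AP-1 motif. Their background was lower in K20R by between 0.42 and 0.53 (−0.42 and −0.53), unlike that of most members.

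The genotype-restricted members were weaker peaks than the common ones and lay mostly in introns and intergenic DNA. Of the 110 K20R-restricted members, 51 were intronic, 41 intergenic, 11 exonic and 7 at promoters, and their median percentile was 19.7. Of the 104 WT-restricted members, 54 were intronic, 44 intergenic, 4 exonic and 2 at promoters, with a median percentile of 32.2. The CTCF consensus was found at 10 K20R-restricted members (9.09%, Wilson 95% interval 5.01 to 15.9) and at 0 WT-restricted members, for which the upper bound is 3.56%. On the other autosomes the shares were 3.73% and 2.63%. GATA motifs were at 8.18% and 11.5% of K20R- and WT-restricted members and T-box motifs at 0.91% and 5.77%, with 6.58% and 14.5%, and 0.62% and 2.86%, on the other autosomes. The Wilson intervals of the 2 kinds overlap in the stretch for both motifs.

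Individually, the strongest K20R-restricted member lies between genes, 38225 bp from the TSS of Gab1, with pileups of 48 and 92 in K20R, at percentiles of 75.4 and 83.4. The region nearest to Otud4 had 35 and 69, an intronic region of Chd9 (chr8:90904253-90904977) with a GATA motif had 80 and 111, and one 2730 bp from the TSS of Klf2 (chr8:72316152-72316729) had 76 and 132. The fifth, an exonic region of 1700026F02Rik (chr8:71026217-71026896), had 34 and 41. These regions had no deposited peak in WT.

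The strongest WT-restricted member, in an intron of Wdr59, had pileups of 56 and 117 in WT, at percentiles of 82.2 and 91.2. The intronic region of Cdh11 had 40 and 64, a region 6168 bp from the TSS of the liver enzyme gene Tat (chr8:109983799-109984729) had 37 and 47, one 21635 bp from the TSS of Tox3 (chr8:90369631-90370383) had 29 and 49, and an intronic region of Ttc29 with a GATA motif (chr8:78345856-78346696) had 31 and 36. Single sites thus had no deposited peak in K20R within a stretch whose level as a whole was higher there.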

How the data were processed

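ATAC-seq peak lists of 4 libraries (2 WT and 2 CTCF-K20R, EBs on day 4) were used, with genotype and replicate number as per the labels. The members and gene lists described here were chosen with earlier results of these data known. As stated in the methods of the study, Trim_Galore removed adaptors, bowtie2 aligned the reads to mm10, poorly mapped, duplicate and blacklisted reads were discarded, and MACS2 called peaks at default settings. The deposited score is the −log10 p in a rounded form and was not used. The deposited ratio (fold) sets a summit against its local background, as MACS2 gives it, and the authors' −log10 p and −log10 q refer to the same summit. The lists reach a p of 0.01 and their peak numbers have gaps, so peaks had been removed by a rule not given in the sources used here. Reads and their totals were not used, so depth is unknown and the differential test of the study, made on reads with DiffBind, could not be repeated.

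Summit pileup and background were recovered from fold and p, as fold is (pileup + 1)/(background + 1) and p its Poisson tail, which gave whole pileups within 0.01 for 100% of peaks, and the recovery was tested on simulated data. Per region and library the strongest peak by −log10 p was taken, and its log2 value (pileup and background plus 1) was centred on the library's median over common autosomal regions. Percentiles are ranks of −log10 p within a list. Regions were assigned to promoters (within 1000 bp of a protein-coding TSS), exons, introns or intergenic DNA by their strongest summit with GENCODE vM21 basic, and gene promoters took the strongest peak within 1000 bp of a TSS of the gene. Genes named are those of the fixed lists (1 is not reported here), the 5 promoters that gained most and least, the 5 strongest restricted regions of each genotype and the 5 non-promoter regions that gained most; others are marked where named. Python 3 with numpy, pandas and scipy was used. Since the interval was selected on these values, no test was run.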

Additional observations from a re-analysis of the deposited data

How the results depend on the processing

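No alternative turned the pileup, background or rank difference of the stretch around, and 45 of 73 values stayed within the replicate spread or within 1.5 times the main count. The pileup difference of 0.66 became 0.50 with levels centred on all peaks, which moved all autosomal regions alike, 0.62 with −log10 q of at least 10, 0.62 with the mean over the peaks of a region and 0.59 without promoters. The fold difference of 0.055 became −0.010 with centring on all peaks, the only change of sign, 0.030 with −log10 q of at least 10, 0.070 without promoters and 0.037 above the background floor, a setting chosen after seeing the data. The background difference of 0.56 became 0.62 with no 1 added and 0.60 above the floor. With −log10 q of at least 10, members numbered 1216, with 76 K20R-restricted and 47 WT-restricted, so that the near equality of the restricted counts held in neither this setting nor the next. With equal list lengths of 51823 peaks there were 169 K20R-restricted and 66 WT-restricted members. Leaving out 1 library gave 0.62 to 0.66 for the pileup, 0.0067 (without K20R replicate 1) to 0.13 (without K20R replicate 2) for the fold, 0.51 to 0.61 for the background, 4.46 to 6.62 points for the rank, 146 to 253 K20R-restricted and 132 to 203 WT-restricted members, and 1874 to 1929 members. Restricted counts then rise by construction, since a region needs fewer lists, and by over 1.5 times without each library except WT replicate 1 (146 K20R-restricted) and K20R replicate 1 (132 WT-restricted). The cause of the other shifts was not tested.

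Libraries of the same replicate number deviated together only weakly (correlation 0.11 over common autosomal regions), and nothing in the labels pairs them. With a replicate block, that is K20R against the WT library of the same number, the pileup difference was 0.65, the fold difference 0.044, the background difference 0.55 and the rank difference 5.33 points, and both pairs were higher in K20R at 85.2% of common members. Without reads, a region that lacks a peak cannot be given a level, so the levels cover common members alone, and with 2 libraries a genotype no single region can be called.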
